A study of Mus musculus with 13 samples.

Results

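Dense clusters of distal ESR1 sites were stretches of the genome in which at least 4 recurrent ESR1-bound regions lay close together, away from any gene start. ESR1 (estrogen receptor alpha) had been profiled by ChIP-Seq, which sequences the DNA that an antibody to the receptor pulls down. The cells were primary fibroblasts of the lower abdominal muscle (LAM). The donors were Aromhum mice, all of which carry the human aromatase gene, and the cells are called hernia-associated fibroblasts (HAFs). The treatments were vehicle, E2 (estradiol, 10 nM), E2 plus fulvestrant (100 nM) and fulvestrant alone, with 3 libraries each. E2 or ethanol was left on for 1 hour, after a pretreatment with fulvestrant or DMSO. The input sample, the last of the 13 samples, was not analysed here. The labels gave neither the age of the mice nor whether replicates were separate cultures or animals, so p-values measure only the spread between these libraries, which may be technical. Vehicle cultures carried the transgene too, so no group lacked aromatase.

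The 12 peak lists held 686823 peaks, which merged into 228284 regions wherever peaks overlapped by at least 1 bp. Of these, 27158 had a peak in at least 6 of 10 libraries, leaving out E2 replicate 1 and fulvestrant replicate 2. A region was distal when its strongest summit, the position of most signal in a peak, lay over 3 kb from every annotated transcription start site (TSS), which left 15335. Joining distal regions with gaps of at most 12.5 kb gave 494 clusters of at least 4 regions. They held 2661 member regions, 17.4% of the recurrent distal regions and 1.17% of all merged regions. The other 12674 recurrent distal regions stood alone or in groups of 2 or 3 and are called unclustered. Members were thus chosen by their recurrence and position, as read from the peak lists, so the number of clusters, their spacing and their recurrence are descriptions and carry no test.

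ESR1 is a nuclear receptor that binds DNA as a dimer once estradiol occupies it, and it acts on genes mostly from distant enhancers rather than from promoters. Its own recognition sequence, the estrogen response element (ERE), is a palindrome of 2 short arms with a spacer, although ESR1 is also found at sites that belong to other factors. Neighbouring enhancers along one gene are a feature of strongly regulated genes of a cell type. Fulvestrant competes with estradiol for ESR1 and promotes loss of the receptor. Fibroblasts make the extracellular matrix of muscle, including collagens, fibrillin and the proteins that store TGF-beta.

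E2 replicate 1 and fulvestrant replicate 2 stood apart from the rest before any comparison. Their lists were the longest, with 104571 and 80754 peaks against 34293 to 68971 in the other 10 libraries. In E2 replicate 1, 59.4% of the peaks lay in repeat-masked sequence, and in fulvestrant replicate 2 27.9%, against 5.57% to 7.79% elsewhere. Recurrent regions took 14.2% and 30.7% of their peaks, against 50.9% to 83.0% in the others. Tests used the 10 other libraries, 5 given E2 (2 with E2, 3 with E2 plus fulvestrant) against 5 not given it (3 vehicle, 2 fulvestrant). For fulvestrant, the 3 libraries of E2 plus fulvestrant and the 2 of fulvestrant alone were set against 3 vehicle and 2 E2 libraries, so both comparisons contain the E2 plus fulvestrant libraries. With 5 against 5 libraries the two-sided exact permutation test has 252 arrangements and cannot give a p below 0.00794. ChIP-Seq of bulk cultures cannot tell more cells with bound receptor from more receptor bound per cell.

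The following stretches of 103 bp are shown because each holds an ERE at a member region of a cluster described below. They are the plus strand of GRCm38 (RefSeq), with the ERE, GGTCANNNTGACC with at most 1 mismatch, in capitals. The stretch of the Igf1 cluster lies at chr10:87795737-87795839 (intergenic), that of Col4a1 at chr8:11285545-11285647 (intronic) and that of Ltbp2 at chr12:84854711-84854813 (intronic). Those of the Fbn1 cluster are at chr2:125268965-125269067 (intergenic) and chr2:125368785-125368887 (intronic). The Pgm5 stretch is at chr19:24753546-24753648 (intronic) and the Snx19 stretch at chr9:30535849-30535951 (intergenic). The Igf1 and Col4a1 elements match without a mismatch, and the other 5 have 1.
Igf1 cluster, region 1: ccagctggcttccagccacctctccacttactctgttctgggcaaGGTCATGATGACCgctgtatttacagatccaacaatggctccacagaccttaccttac
Col4a1 cluster, region 5: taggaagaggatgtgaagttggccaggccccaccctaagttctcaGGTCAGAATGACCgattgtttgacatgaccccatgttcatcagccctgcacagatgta
Ltbp2 cluster, region 3: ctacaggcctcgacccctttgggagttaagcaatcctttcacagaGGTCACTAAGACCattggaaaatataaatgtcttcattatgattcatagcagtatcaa
Fbn1 cluster, region 2: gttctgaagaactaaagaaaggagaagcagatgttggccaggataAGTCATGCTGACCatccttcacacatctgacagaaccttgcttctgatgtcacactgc
Fbn1 cluster, region 16: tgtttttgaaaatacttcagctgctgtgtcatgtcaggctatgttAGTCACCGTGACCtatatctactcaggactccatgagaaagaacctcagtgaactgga
Pgm5 cluster, region 8: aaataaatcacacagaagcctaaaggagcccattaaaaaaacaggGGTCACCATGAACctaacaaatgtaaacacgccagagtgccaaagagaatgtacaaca
Snx19 cluster, region 5: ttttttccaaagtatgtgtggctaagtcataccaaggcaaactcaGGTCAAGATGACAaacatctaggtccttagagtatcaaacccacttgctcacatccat

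Across the 494 clusters the number of regions ran from 4 to 21, with a median of 5. There were 234 clusters of exactly 4 regions just inside the limit and 600 groups of exactly 3 just outside it, and 29 clusters had 10 or more. Clusters spanned 7.69 to 198.38 kb, with a median of 26.3 kb and quartiles of 19.7 and 36.3 kb. Inside clusters the median gap between neighbours was 3205 bp, against 30770 bp between neighbouring recurrent distal regions in general. The largest gap joined was 12440 bp and the smallest not joined was 12506 bp. The member closest to a TSS was 3006 bp away, and the farthest promoter region was 3000 bp away.

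**Figure D1:**
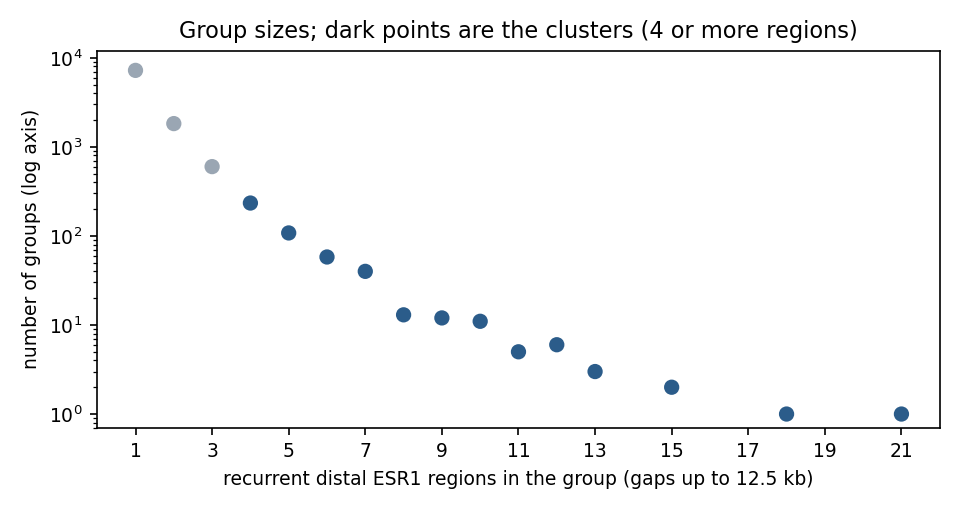
Number of groups of recurrent distal ESR1 regions (log axis) against the number of regions in the group, with each point 1 group size. Grey points are unclustered groups of 1 to 3 regions, and dark points are clusters of 4 to 21, whose number falls from 234 at 4 regions to 1 at 21.

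Recurrence, which the rule had used only as a minimum of 6 libraries, was high among members. A peak was present in all 10 libraries at 1130 members (42.5%), against 29.0% of unclustered regions. At the limit, 395 members had a peak in exactly 6 libraries, and 3629 distal regions had one in exactly 5 and were not taken. Member regions were also wider, with a median of 1911 bp against 1512 bp for unclustered regions.

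Clusters lay in and around long genes. Of the member summits, 56.7% were intronic, 40.1% intergenic and 3.27% exonic, against 45.3%, 50.1% and 4.64% of unclustered summits. A protein-coding gene body overlapped 332 clusters (67.2%). Those genes had a median length of 102 kb, against 17.4 kb for all protein-coding genes. The part of gene length in where clusters lie was not tested. The centre of a cluster lay a median of 42.4 kb from the nearest protein-coding TSS. In all, 562 of 21924 protein-coding genes (2.56%) were nearest to a cluster or overlapped by one. Chromosome 2 had the most clusters (40), chromosome 1 had 39 and chromosome X had 2.

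A 21-region cluster, the largest, spanned chr13:104464857-104663236, overlapping Adamts6, which encodes a secreted metalloprotease, and Cwc27, which encodes a splicing-associated protein. Fbn1, which encodes the microfibril protein fibrillin-1, had the next, with 18 regions over chr2:125263274-125393578, 12 of them intronic. Clusters of 15 regions lay near Zfp36l1, an RNA-binding protein of mRNA decay, and over Arid5b, a DNA-binding protein. Clusters of 13 regions included those over Fndc3b, a fibronectin-domain protein, and Fstl1, a secreted glycoprotein. Those of 12 regions among the 10 largest overlapped Neurl1a and Sh3pxd2a, the latter a scaffold of podosomes, overlapped Pgm5, a protein of cell adhesions, or lay near Slc44a3. Fbn1 overlapped or was nearest to 2 smaller clusters as well, of 4 and 6 regions.

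Strength was measured as a rank percentile within each library. All 27158 recurrent regions were ranked by the −log10 p of their strongest peak, 100 being the strongest, and regions without a peak shared the middle rank of their class. That shared rank lay between 0.521 and 14.8 in the 10 libraries, so weak regions start from different floors. In the largest cluster, Adamts6/Cwc27, the mean rank percentile was 69.3, 69.7 and 68.2 in the vehicle libraries, 67.5 and 63.9 in E2, 66.0, 65.1 and 70.9 in E2 plus fulvestrant and 70.8 and 62.7 in fulvestrant libraries. The groups overlapped, at 66.7 ± 2.71 (SD, n = 5) with E2 given and 68.1 ± 3.19 (n = 5) without.

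Fbn1 was among the largest clusters in which all used libraries given E2 ranked above all used libraries without it. Vehicle libraries had mean rank percentiles of 48.8, 53.1 and 55.8 and fulvestrant libraries 44.7 and 49.7. E2 libraries had 67.2 and 62.0, and those with E2 plus fulvestrant 60.9, 58.3 and 61.3. The lowest library given E2 was thus above the highest not given it, 61.9 ± 3.24 (SD, n = 5) against 50.4 ± 4.27 (n = 5), a difference of 11.5 percentile points (exact permutation p = 0.00794, two-sided, the smallest this design gives). Over all 10143 groups of recurrent distal regions the Benjamini-Hochberg adjusted p was 0.0975.

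Both Fbn1 regions with an ERE separated the used libraries in the same way. Region 2, 5539 bp from the nearest TSS, ranked at 71.9, 42.6 and 42.8 in vehicle, 90.6 and 90.9 in E2, 87.6, 96.7 and 94.4 in E2 plus fulvestrant, and 57.3 and 46.1 in fulvestrant libraries. Region 16 ranked at 63.8, 62.1 and 43.6, then 98.1 and 95.8, then 90.9, 94.8 and 97.7, then 69.1 and 68.7 in the same order. In neither region did the used libraries given E2 overlap the others, and the mean differences were 39.9 and 34.0 percentile points. In E2 replicate 1, which was not used, region 2 had no peak (rank percentile 27.3) and region 16 was at 58.4. At single regions, too, the smallest exact permutation p was 0.00794 and the smallest adjusted p over all 15335 regions was 0.0984.

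**Figure D2:**
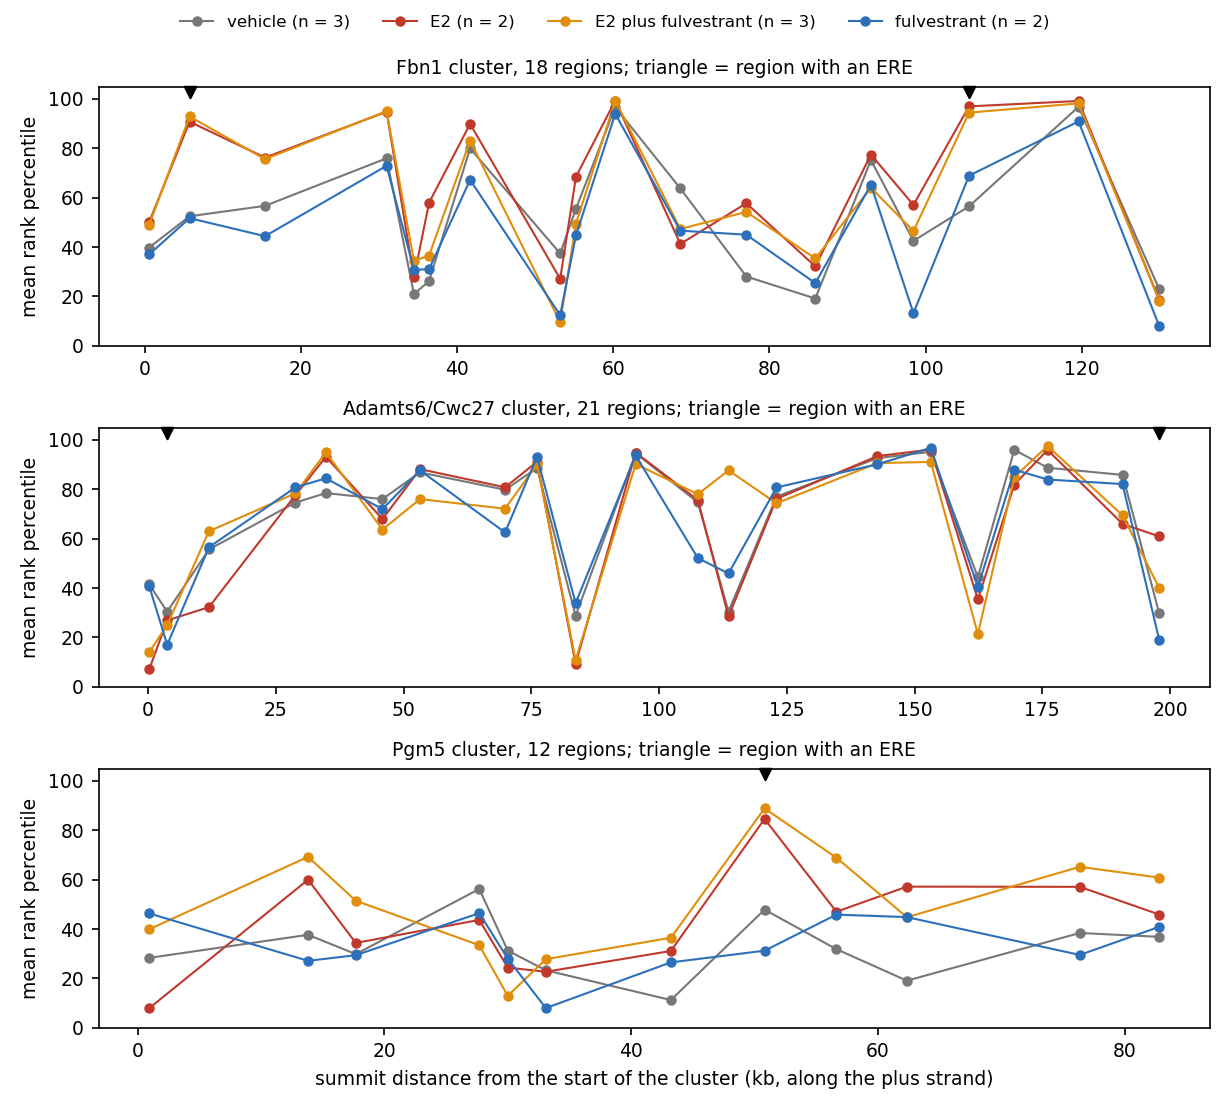
Mean rank percentile (vertical axis, 100 = strongest) of each member region against the distance of its summit from the start of the cluster in kb, for the Fbn1, Adamts6/Cwc27 and Pgm5 clusters. Each line is 1 treatment and each point the mean over its 2 or 3 libraries used, with no error drawn. Triangles mark regions with an ERE, and in Fbn1 and Pgm5 these have higher means in the E2 and E2 plus fulvestrant groups than in the other 2.

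Cluster size by treatment was taken as the members that had a peak in a library. In vehicle libraries 90.5%, 69.7% and 69.9% of members had a peak, and 97.3% and 99.1% in the E2 libraries used. With E2 plus fulvestrant the shares were 78.5%, 90.2% and 96.0%, and with fulvestrant 83.7% and 84.4%. Given E2 the mean was 92.2% ± 8.35 (SD, n = 5), and without it 79.6% ± 9.35 (n = 5), and the groups overlapped because vehicle replicate 1 was above E2 plus fulvestrant replicates 1 and 2, and both fulvestrant libraries above replicate 1. The number of peaks in a list moved with these shares. When every list was limited to 34293 peaks the difference of 12.6 percentage points was 7.14. For fulvestrant given against not given the difference was 1.27 percentage points and changed sign under other settings.

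Size was also read per cluster. The mean number of regions with a peak per cluster restates the shares above on another scale. It was 4.87, 3.76 and 3.76 in vehicle, 5.24 and 5.34 in E2, 4.23, 4.86 and 5.17 in E2 plus fulvestrant, and 4.51 and 4.54 in fulvestrant libraries. Of 494 clusters, 394, 243 and 245 kept at least 4 regions with a peak in vehicle libraries, 469 and 482 in E2, 319, 408 and 456 in E2 plus fulvestrant and 346 and 342 in fulvestrant libraries. The 2 E2 libraries were the highest, and vehicle replicates 2 and 3 the lowest. The length under peaks per cluster was 6.93, 4.15 and 4.09 kb in vehicle and 9.02 and 11.3 kb in E2 libraries, and the stretch from the first to the last region with a peak averaged 28.8, 24.3 and 25.1 kb against 29.8 and 29.9 kb. With E2 plus fulvestrant the length under peaks was 4.86, 6.01 and 7.92 kb, and with fulvestrant 5.93 and 6.16 kb.

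By strength, members were at mean rank percentiles of 46.2, 46.8 and 46.7 in vehicle, 50.1 and 47.8 in E2, 47.0, 49.3 and 51.2 in E2 plus fulvestrant, and 45.7 and 47.2 in fulvestrant libraries. Of the 5 libraries given E2, 4 were above all 5 others, and the means were 49.1 ± 1.71 (SD, n = 5) and 46.5 ± 0.558 (n = 5).

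**Figure D3:**
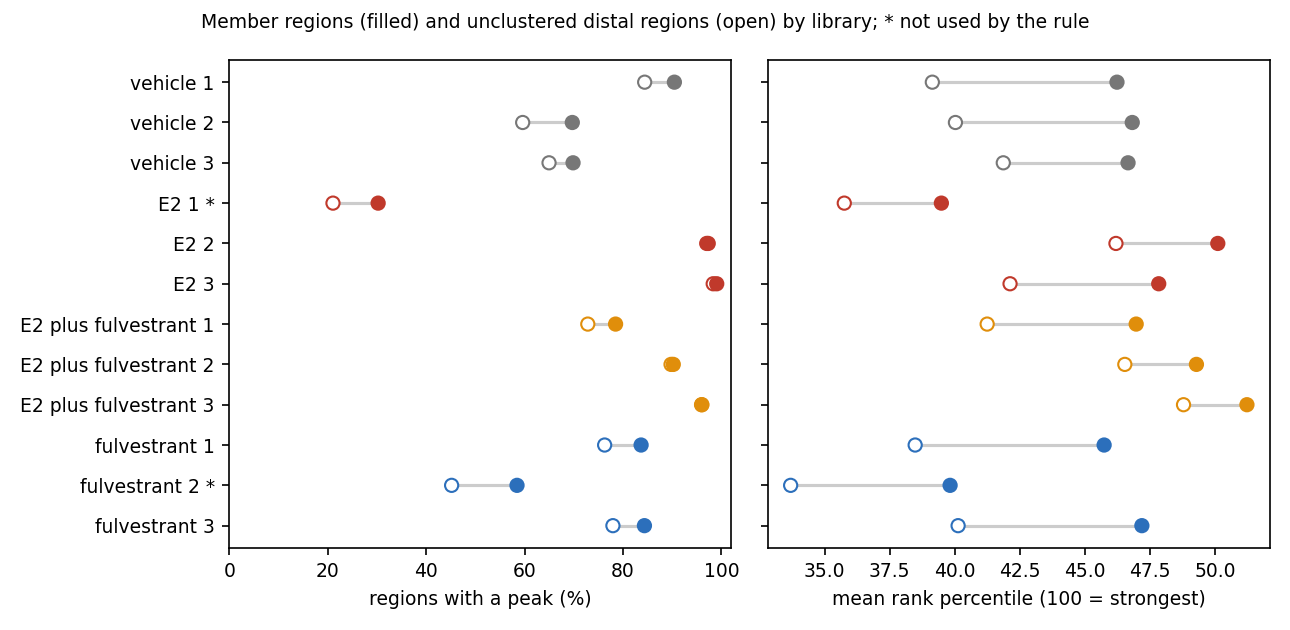
Share of regions with a peak (left, percent) and mean rank percentile (right, 100 = strongest, axis not from 0) in each of the 12 libraries, filled points for member regions and open points for unclustered distal regions. Members lie above unclustered regions throughout, except in the share of E2 plus fulvestrant replicate 3 (−0.0681 percentage points), and among the 10 libraries used the gap in the left panel is narrowest in replicates 2 and 3 of E2 and of E2 plus fulvestrant. An asterisk marks the libraries the rule used only for merging.

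Members were set against unclustered regions within each library. In vehicle libraries 84.4%, 59.6% and 65.0% of unclustered regions had a peak, in E2 libraries 97.0% and 98.3%, with E2 plus fulvestrant 72.9%, 89.8% and 96.0%, and with fulvestrant 76.3% and 78.0%. The members' lead was 1.41 ± 2.38 percentage points (SD, n = 5) in libraries given E2 and 6.96 ± 1.97 (n = 5) in those without, a difference of −5.55. The rule set a minimum on these peaks, so the lead is a description with no test. Shares near 100% leave little room for a lead, and the part of this in the difference was not tested. The difference turned to 0.264 once peaks under a −log10 q of 10 were left out. In mean rank percentile the lead was 4.11 with E2 and 6.60 without, a difference of −2.49, which likewise turned to 0.520. For fulvestrant the difference in lead was −0.436 percentage points and −0.614 percentile points.

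The 2 libraries left out of the count of 6 in 10 give a reading of recurrence that did not enter that count. Their peaks did enter the merging, which set region edges and gaps. Members were also wider than unclustered regions (median 1911 against 1512 bp), so the 2 sets differ in room for a peak. In E2 replicate 1, 30.3% of members had a peak (Wilson 95% interval 28.5% to 32.0%), against 21.1% of unclustered regions (20.4% to 21.8%). In fulvestrant replicate 2, 58.5% of members did (56.6% to 60.3%), against 45.2% (44.3% to 46.1%). These intervals cover counting error only, and neighbouring members are not independent. By group size, the share in E2 replicate 1 was 20.0% for regions that stood alone, 22.5% in groups of 2 or 3, 28.7% in clusters of 4 or 5, 34.3% in clusters of 6 to 9 and 27.0% in clusters of 10 or more. In fulvestrant replicate 2 the same shares were 42.4%, 48.9%, 56.4%, 61.5% and 60.0%. The mean difference in rank percentile with E2 over the 10 other libraries ran the other way, from 5.47 for regions alone through 4.49, 3.53 and 1.38 to 1.24 in clusters of 10 or more, and the ERE share was 5.66%, 4.62%, 3.79%, 3.21% and 4.64%.

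EREs were uncommon among members. Within 100 bp of the strongest summit, on either strand, 99 of 2661 members held one, 3.72% (Wilson 95% interval 3.07% to 4.51%), against 5.22% of unclustered regions (4.84% to 5.62%). The same search centred 2 kb upstream found one at 0.451% of members and 0.521% of unclustered regions. Only 21 members (0.789%) had the palindrome without a mismatch. The 99 regions were spread over 86 clusters (17.4%), of which 13 held 2.

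Members with an ERE ranked higher in every used library given E2 than in any used library without it. Their mean rank percentile was 59.3, 59.5 and 61.5 in vehicle and 57.2 and 57.7 in fulvestrant libraries. It was 78.8 and 73.1 with E2 and 73.4, 77.5 and 79.5 with E2 plus fulvestrant. Members without an ERE were at 45.7, 46.3 and 46.1 in vehicle, 49.0 and 46.9 in E2, 45.9, 48.2 and 50.1 in E2 plus fulvestrant, and 45.3 and 46.8 in fulvestrant libraries. The lead of ERE members was 28.4 ± 1.52 percentile points (SD, n = 5) with E2 given and 13.0 ± 1.73 (n = 5) without. That difference of 15.4 reached the smallest p the design allows (exact permutation p = 0.00794, two-sided, adjusted p = 0.0952 over 18 differences between libraries, and 0.0179 over 9 motif classes). These classes count the ERE both with at most 1 mismatch and without one, and the others are given below. For the ERE without a mismatch (21 members) the difference was 20.9 (exact permutation p = 0.00794). Between fulvestrant given and not given, the lead of ERE members with at most 1 mismatch differed by 2.15 (exact permutation p = 0.865). In the libraries not used, ERE members ranked at 45.1 against 39.3 (E2 replicate 1) and at 45.2 against 39.6 (fulvestrant replicate 2), and over all 12 libraries the difference with E2 was 12.9 (exact permutation p = 0.0130).

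**Figure D4:**
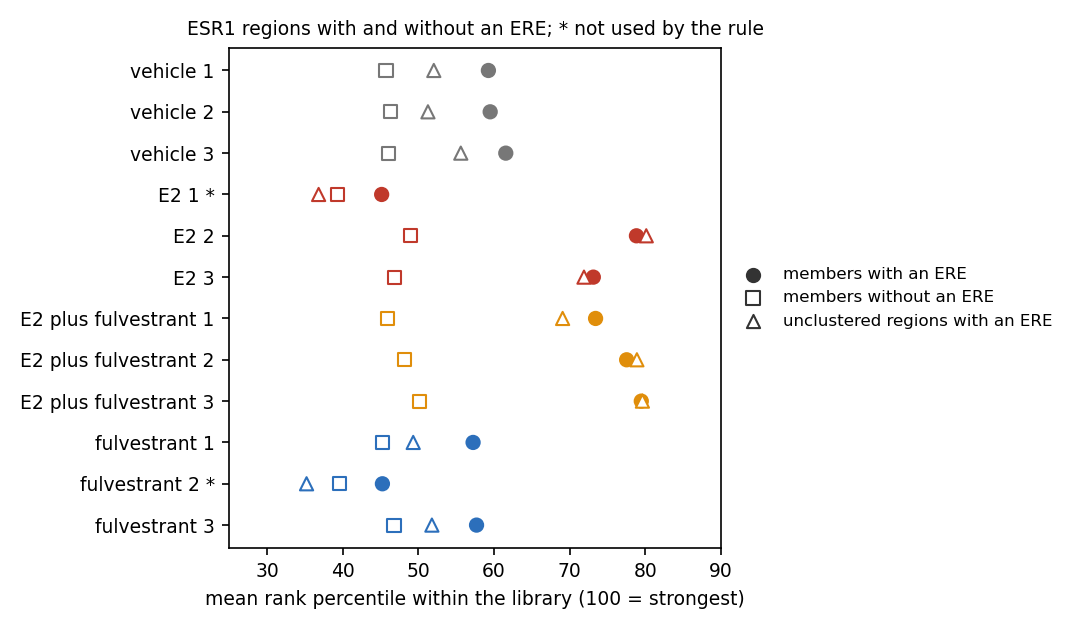
Mean rank percentile within the library (horizontal axis, 100 = strongest, axis not from 0) for members with an ERE (filled circles), members without (open squares) and unclustered regions with an ERE (open triangles), by library. The circles lie at 73.1 to 79.5 in the 5 used libraries given E2 and at 57.2 to 61.5 in the 5 without, while the squares of these 10 libraries stay between 45.3 and 50.1. An asterisk marks the libraries the rule used only for merging.

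ERE regions inside clusters differed from unclustered ERE regions mainly in libraries without E2. Unclustered ERE regions ranked at 52.0, 51.3 and 55.6 in vehicle and 49.3 and 51.8 in fulvestrant libraries, below clustered ones in all 5. With E2 they were at 80.1 and 71.9, and with E2 plus fulvestrant at 69.1, 78.9 and 79.6. Clustered minus unclustered was 7.04 ± 1.08 percentile points (SD, n = 5) without E2 and 0.558 ± 2.37 (n = 5) with it. The difference was −6.48. This comparison was chosen after the data had been seen, and the rule set a minimum on these peaks too, so it is a description with no test.

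Inside a cluster the ERE region was often the strongest. In the 86 clusters with an ERE, such a region led in 42, 42 and 42 in vehicle, 54 and 49 in E2, 53, 55 and 50 in E2 plus fulvestrant, and 40 and 39 in fulvestrant libraries. If every region of a cluster were equally likely to lead, the share would be 21.0%. It was 60.7% ± 3.01 (SD, n = 5) with E2 given and 47.7% ± 1.64 (n = 5) without, with no overlap among the libraries used (difference 13.0 percentage points, exact permutation p = 0.00794, two-sided, chosen after the data had been seen). Fulvestrant given against not given differed by 1.86 percentage points (exact permutation p = 0.786). In the libraries not used, such a region led in 29 of the 86 clusters (33.7%, E2 replicate 1) and in 28 (32.6%, fulvestrant replicate 2). E2 replicate 1 was thus below every used library without E2.

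The neighbours of ERE regions shifted less. In the 86 clusters the median difference with E2 was 9.75 percentile points for the ERE regions and 2.84 for the other regions, and the ERE regions had the larger value in 62 clusters. In the 408 clusters without an ERE the median over their regions was 0.579. Of the 433 neighbours, 34 (7.85%) were higher in all 5 libraries given E2 than in all 5 others, against 4.56% of regions in clusters without an ERE and 7.34% of all recurrent distal regions, so the neighbours' share was near that of all regions.

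Recognition sequences of other factors were searched in the same windows. AP-1, the factor of FOS and JUN proteins (TGAGTCA), was present at 210 members (7.89%, against 4.17% of the windows 2 kb upstream and 8.64% of unclustered regions). Its members ranked below the rest by 4.74 percentile points without E2, at −4.74 ± 1.21 (SD, n = 5), and level with it given E2, at 0.801 ± 1.71 (n = 5). The difference of 5.54 had an exact permutation p of 0.00794 (two-sided, adjusted p = 0.0179 over 9 motifs) and was 5.59 when members with an ERE were left out. MEIS (TGACAG, 436 members) differed by 2.39 (exact permutation p = 0.00794, adjusted p = 0.0179) and C/EBP (TTGCNNAA, 279 members) by 2.64 (exact permutation p = 0.0238, adjusted p = 0.0429). Both letter strings were nearly as common 2 kb upstream. MEIS was at 16.4% of members against 14.1% of those windows, and C/EBP at 10.5% against 8.91%.

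The remaining motifs did not pass. TEAD (GGAATG, 375 members) differed by 0.503 with E2 (exact permutation p = 0.611), RUNX (TGTGGT, 419 members) by −1.20 (p = 0.103), the E-box (CAGCTG, 418 members) by 1.06 (p = 0.357) and the forkhead motif (TGTTTAC, 86 members) by 0.945 (p = 0.460). With fulvestrant none of the 9 motif classes, ERE included, passed, with the adjusted exact permutation p at 0.976 for each. CRE (TGACGTCA) was at 3 members and NFI (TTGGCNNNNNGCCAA) at 1. The windows overlap between motifs, and 5 of the AP-1 members also held an ERE. The ERE apart, the widest gap in motif share between members and unclustered regions was that of TEAD, 14.1% against 16.2%, and the median GC content was 47.8% and 46.3%.

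Single members were counted as higher when all 5 libraries given E2 ranked above all 5 others. That held for 165 members (6.20%) against 7.34% of all recurrent distal regions, and 24 members (0.902%) were lower against 0.73%. The members' share of higher calls was slightly under the background. With all 12 libraries, 6 against 6, 0.639% of members were higher and 0.150% lower. The share over all recurrent distal regions was not computed for that setting. Among the 99 ERE members 34 (34.3%, Wilson 95% interval 25.7% to 44.1%) were higher and 0 lower, and among the 2562 others 131 (5.11%) were higher. Of unclustered ERE regions 38.9% were higher. No single region had an adjusted p under 0.05 by the exact permutation test with E2, and 3143 of 15335 (20.5%) had an unadjusted p under 0.05. With fulvestrant 24 members (0.902%) were higher against 1.04% of all, and 16 (0.601%) lower against 0.346%. There, too, no region reached an adjusted p of 0.05 by the exact permutation test, the smallest being 0.574, and 912 (5.95%) had an unadjusted p under 0.05.

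Whole clusters were read in the same way on the mean rank over their regions. With E2 34 clusters (6.88%) were higher, against 7.49% of all groups, and 2 (0.405%) lower, against 0.651%. With fulvestrant 5 were higher (1.01% against 1.11%) and 2 lower (0.405% against 0.276%). The smallest adjusted p over the 10143 groups was 0.0975 for E2 and 0.571 for fulvestrant by the exact permutation test, so no cluster passed 0.05 after adjustment. At an unadjusted p under 0.05 there were 2232 groups (22.01%) with E2 and 614 (6.05%) with fulvestrant. Clusters with an ERE were higher with E2 in 14 of 86 cases (16.3%) and clusters without in 20 of 408 (4.90%), and the median difference was 6.36 and 0.579 percentile points. The median over all clusters was 1.43, against 2.42 over all groups.

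The 34 clusters differed by 9.26 to 42.01 percentile points, with a median of 19.1. They held 196 regions, of which 45 were higher one by one and 0 lower. In 9 of them no single region was higher, in 12 exactly 1 was, and in 13 at least 2 were, with 5 at most. The cluster mean thus separated the libraries in some cases where no region did. Another 120 higher members lay in clusters whose mean was not higher, and 5 clusters held both a higher and a lower region.

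The largest differences with E2 included those at Galnt17, Igf1, Snx19 and Gas7. Galnt17, which encodes a transferase of sugar to proteins, had 4 intronic regions over chr5:131250635-131268629. Its mean rank percentile was 16.8, 29.8 and 17.5 in vehicle, 75.8 and 69.8 in E2, 67.6, 77.9 and 71.1 in E2 plus fulvestrant, and 40.4 and 47.7 in fulvestrant libraries, so the fulvestrant libraries lay between vehicle and the rest. The difference was 42.01 percentile points, at 72.5 ± 4.27 given E2 against 30.5 ± 13.7 not (SD, n = 5 each). A second Galnt17 cluster of 4 regions (chr5:130927620-130951254), with an ERE, differed by 16.7, and its groups overlapped.

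Igf1 encodes a growth factor that fibroblasts and muscle use. Its cluster lay 49428 bp from the Igf1 TSS, over chr10:87795271-87822402, with 4 intergenic regions. The mean rank percentile was 53.4, 39.6 and 41.0 in vehicle, 77.1 and 60.3 in E2, 75.2, 85.1 and 82.3 in E2 plus fulvestrant, and 40.8 and 31.5 in fulvestrant libraries. All 5 libraries given E2 were above all 5 others, at 76.0 ± 9.61 against 41.3 ± 7.81 (SD, n = 5 each). The number of regions with a peak was 4, 2 and 2 in vehicle, 4 and 4 in E2, 4, 4 and 4 in E2 plus fulvestrant, and 2 and 2 in fulvestrant libraries.

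The Igf1 regions differed among themselves. Region 4 was strong throughout, at 68.8 to 98.7 in the 10 libraries. Region 3 was the region higher with E2, at 31.5, 14.8 and 43.8 in vehicle, 91.2 and 79.8 in E2, 63.3, 75.8 and 74.7 in E2 plus fulvestrant, and 8.07 and 7.93 in fulvestrant libraries, in both of which it had no peak. Region 1, which carries the exact ERE printed above, was at 49.2, 14.8 and 13.9 in vehicle and 49.1 and 33.7 in E2 libraries, so its groups overlapped, although the 3 E2 plus fulvestrant libraries were at 53.6, 81.2 and 65.5. In the libraries not used the Igf1 cluster had no member with a peak.

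Snx19, which encodes a sorting nexin, was nearest to a cluster of 7 intergenic regions at chr9:30500364-30550916, 2 of them with an ERE. Its mean rank percentile was 67.8 ± 6.17 given E2 and 33.6 ± 7.13 not (SD, n = 5 each), and all 7 regions had a peak in each of the 5 libraries given E2. In the other 5 libraries 2 to 6 regions did. Region 5, with the ERE printed above, reached 92.7 to 98.6 with E2 given, but vehicle replicate 3 was at 96.0, so that region overlapped. In E2 replicate 1, which was not used, the clusters at Galnt17 (the first), Igf1, Snx19 and Gas7 were at 27.3 to 43.7, where a region without a peak had 27.3. Near Gas7, a growth-arrest gene, a 4-region cluster at chr11:67379536-67406186 had 62.4 ± 6.995 given E2 against 29.3 ± 14.2 not (n = 5 each).

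Matrix and TGF-beta genes were among the rest of the 34. Col4a1, a basement membrane collagen gene, had 5 intronic regions (chr8:11258227-11285905) at 37.7, 30.4 and 29.7 in vehicle, 50.2 and 54.0 in E2, 55.5, 55.9 and 56.3 in E2 plus fulvestrant, and 37.9 and 38.1 in fulvestrant libraries. These groups did not overlap, and the difference was 19.6 percentile points. Its region 5, 5670 bp from the nearest TSS, was at 84.7 given E2 and 27.7 not, and holds the exact ERE. Ltbp2, which encodes a matrix protein related to the latent TGF-beta binding proteins, had 5 intronic regions (chr12:84844331-84865812) with a difference of 15.9, and its ERE region 3 was at 94.2 and 85.0 in E2, 81.1, 87.8 and 87.9 in E2 plus fulvestrant and 7.93 to 51.2 in the 5 others. Thbs2, a matricellular thrombospondin, had a 10-region cluster with the smallest of the 34 differences, 9.26.

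Pgm5 joined Fbn1 as the other of the 10 largest clusters that was higher. Its 12 intronic regions (chr19:24702805-24786395) had 31.6, 33.7 and 32.7 in vehicle, 43.3 and 42.8 in E2, 46.9, 46.9 and 56.2 in E2 plus fulvestrant, and 37.9 and 29.5 in fulvestrant libraries. No used library given E2 was under any used library without it, at 47.2 ± 5.38 against 33.1 ± 3.09 (SD, n = 5 each). Its ERE region 8 was at 82.9 to 90.0 given E2 and at 20.4 to 82.3 otherwise in the libraries used. That region, Col4a1 region 5 and Ltbp2 region 3 had no peak in E2 replicate 1, which was not used. Further clusters higher with E2 included those at Klf4 (19.3 percentile points), a zinc-finger factor, Rxra (17.1), the partner receptor of many nuclear receptors, with 10 regions and 2 EREs, Fgf2 (19.5), a fibroblast growth factor, and Col24a1 (25.6). These were named after their values were seen.

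**Figure D5:**
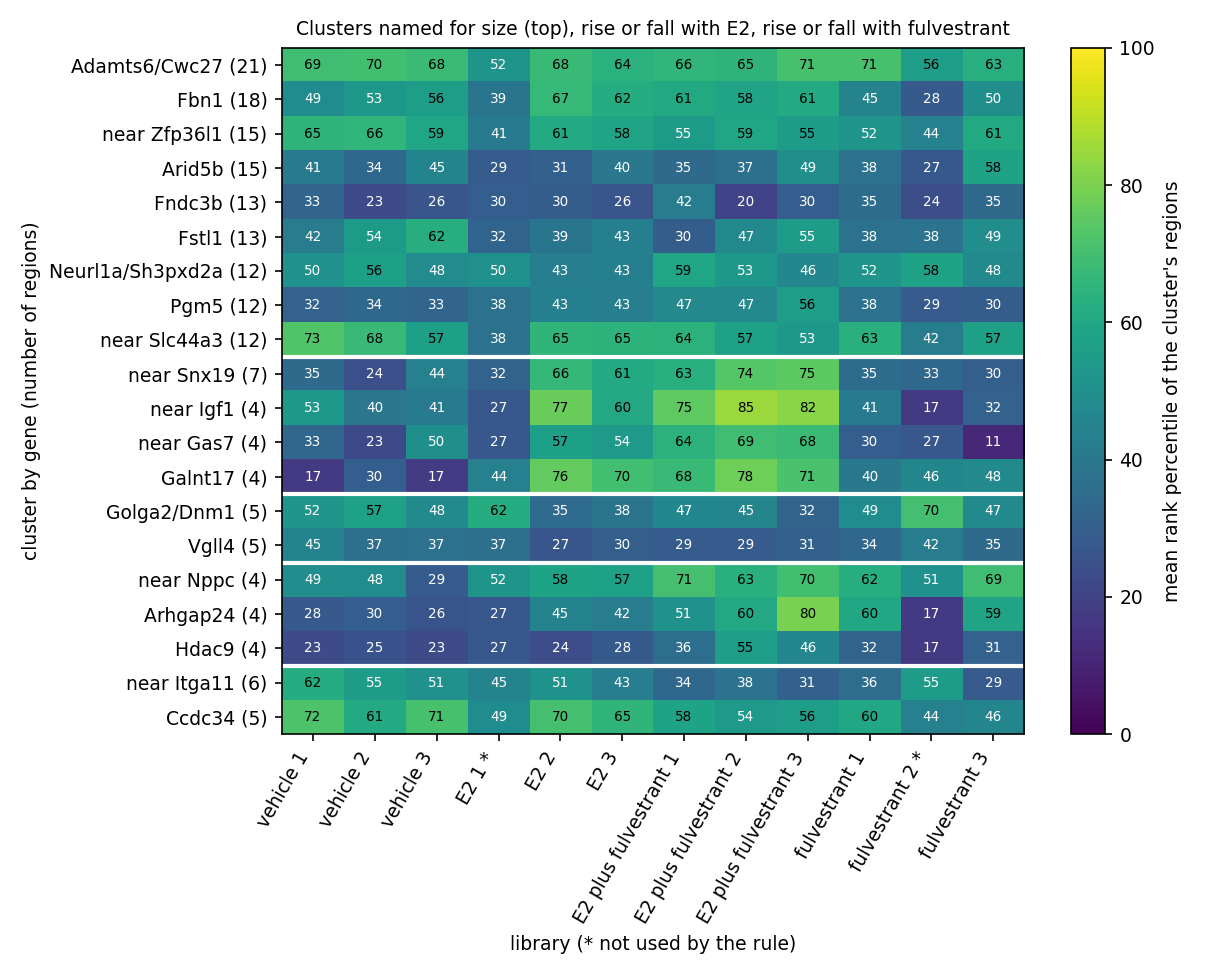
Mean rank percentile of the cluster's regions (colour scale and printed value, 100 = strongest) for clusters in rows and the 12 libraries in columns, with the number of regions in parentheses. White lines separate 9 of the 10 largest clusters, 4 of the 5 with the largest positive differences and the 2 lower with E2, and the 3 higher and 2 lower with fulvestrant. An asterisk marks the libraries the rule used only for merging. In the second block the E2 and E2 plus fulvestrant libraries used are at 53.7 to 85.1, above every vehicle and fulvestrant library of the same row.

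Lower with E2 were a cluster over Golga2 and Dnm1, genes of the Golgi and of endocytosis, and one over Vgll4, a cofactor that opposes YAP at TEAD factors. Golga2/Dnm1 (chr2:32304634-32344393, 5 regions) had 52.2, 57.4 and 47.9 in vehicle, 35.1 and 38.4 in E2, 46.5, 45.4 and 32.2 in E2 plus fulvestrant, and 48.7 and 47.4 in fulvestrant libraries. The margin between the groups was narrow, and the difference was −11.2. Vgll4 (chr6:114873637-114900566, 5 regions, 1 with an ERE) had 29.3 ± 1.63 given E2 against 37.5 ± 4.34 not (SD, n = 5 each), a difference of −8.28.

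For fulvestrant, higher clusters were at Arhgap24, near Nppc, at Hdac9, Tgfbr3 and Bmper, and lower ones near Itga11 and at Ccdc34. Arhgap24, a regulator of Rac, had 4 intronic regions (chr5:102612868-102630654) at 28.0, 29.8 and 25.8 in vehicle, 44.9 and 42.1 in E2, 51.1, 60.3 and 79.8 in E2 plus fulvestrant, and 59.9 and 58.6 in fulvestrant libraries. Every library given fulvestrant was above the 5 others, with a difference of 27.8 percentile points. Itga11, a collagen-binding integrin of fibroblasts, was nearest to 6 intergenic regions (chr9:62610598-62655361) at 62.1, 54.7 and 50.7 in vehicle, 50.8 and 42.8 in E2, 33.6, 38.02 and 31.1 in E2 plus fulvestrant, and 35.8 and 28.9 in fulvestrant libraries. The difference was −18.7, and in fulvestrant replicate 2, which was not used, the same cluster was at 54.9, within the range of the vehicle libraries.

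The remaining fulvestrant clusters differed less. The cluster near Nppc, which encodes C-type natriuretic peptide, differed by 18.7, Hdac9, a histone deacetylase, by 15.6, and an 11-region cluster at Tgfbr3, the betaglycan co-receptor of TGF-beta, by 10.3. Ccdc34 differed by −13.3, and Bmper, a BMP-binding protein, by 5.83. None of the fulvestrant clusters held a smaller exact permutation p than 0.00794, and the adjusted p was 0.571.

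Whether E2 acted differently with and without fulvestrant was asked for 28 items, the measures over libraries and the named clusters. The smallest p was 0.1 over 25200 assignments (exact permutation, two-sided), and every adjusted p was at least 0.889. The assignments shuffled all treatments together, so a shift with E2 itself widens the spread that the difference was set against. Many of the 25200 assignments also give the same value. These p-values therefore cannot settle whether E2 acted differently. With 2 or 3 libraries a treatment, such a difference would also have to be large to be detectable. For pairs of treatments the design allows no exact permutation p below 0.1. In share of members with a peak, E2 exceeded vehicle by 21.5 and E2 plus fulvestrant by 9.96 percentage points, and in mean rank percentile by 2.40 and −0.189.

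Genes of the study and known ESR1 partners were looked up by name, against the 2.56% of all protein-coding genes with a cluster. Of 10 genes that the study names as E2-responsive, profibrotic or ChIP controls, 3 had a cluster, among them Adamts6 and Piezo2. None of the 3 was higher or lower with E2. The study drew its core genes from RNA, ESR1 ChIP-Seq and open-chromatin data together, so in part from these samples. It compared E2 with E2 plus fulvestrant, whereas both were counted here as given E2. Piezo2, a stretch-gated channel gene, had 7 regions and a difference of 0.617. Of 21 ESR1 cofactors and classic targets, 4 had one, among them Igf1, Myc and Rara, with differences of 34.7, 27.5 and −7.27.

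The cluster nearest to Myc, the growth-promoting transcription factor, lay 307122 bp from its TSS (chr15:62285894-62303194, 4 intergenic regions). It ranked at 36.2, 44.3 and 41.2 in vehicle, 76.8 and 77.0 in E2, 45.05, 74.7 and 81.7 in E2 plus fulvestrant, and 48.1 and 47.8 in fulvestrant libraries. E2 plus fulvestrant replicate 1 fell among the libraries without E2, so the groups overlapped (exact permutation p = 0.0238). Its region 3 was at 99.3 or above in all 10 libraries, with a fold over local background, as the authors computed it, of 7.88 to 12.5 without E2 and of 22.9 to 33.9 with it. These folds belong to each library's own peak list and were not tested between libraries. The region had a rank of 79.1 and 99.1 in the 2 libraries not used. No ERE was in that window.

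Matrix genes had most clusters of any list. Of 26, 14 had a cluster: Col1a1, Col1a2, Col4a1, Col4a2, Col5a1, Fn1, Fbn1, Lox, Sparc, Thbs1, Thbs2, Dcn, Lum and Timp3. Their 19 clusters held 136 regions, and 3 of the 19 were higher with E2 (Fbn1, Col4a1 and Thbs2), beside 6.88% of all clusters and 7.49% of all groups. None was lower, and the median difference was 3.54, with a range from −11.6 to 25.5. That median stands beside 1.43 over all clusters. The major collagen genes of fibroblasts were not among those higher: Col1a1 (6 regions) differed by −0.326, and the 2 clusters of Col1a2 by 0.636 and −11.6, all with overlapping groups. Dcn, which encodes the small proteoglycan decorin, had an 11-region cluster with a difference of 5.09, also overlapping.

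Among signalling genes, 4 of 19 of the TGF-beta list had a cluster (Tgfbr3, Smad3, Smad7 and Ltbp2), with 7 clusters, 1 higher with E2 (Ltbp2) and 1 with fulvestrant (Tgfbr3). Of the Wnt list 4 of 21 did (Fzd1, Lrp6, Sfrp1 and Ror2), and of the growth factor receptors 4 of 8 (Pdgfrb, Egfr, Fgfr2 and Axl), with 0 higher or lower. AP-1 genes had 2 of 9 (Fosl2 and Maff), YAP and TEAD genes 3 of 12 (Wwtr1, Tead1 and Amotl2), and cytoskeleton and adhesion genes 5 of 14 (Cald1, Palld, Myh9, Actn1 and Actn4), again with 0 higher or lower.

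Mesenchymal transcription factors had 10 of 30, with 13 clusters of which 1 was higher with E2 (Klf4). Prrx1, Tcf4, Snai1, Cebpb, Meis2, Nfia, Nfix and Foxp1 were among the others, and none of the 13 was lower. At Nfix, the 2 clusters differed by −8.28 and −10.9, with overlapping groups.

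Markers of cell types were compared with the label of the cells. Fibroblast genes had a cluster in 5 of 8 cases (Col1a1, Col1a2, Dcn, Lum and Prrx1). The others, Col3a1, Thy1 and Pdgfra, a marker the study uses for these cells, had none. Muscle genes had a cluster in 0 of 6 cases, endothelial genes in 0 of 5, immune genes in 0 of 5 and fat genes in 1 of 5 (Pparg). Binding near a gene is not its expression, and long genes are more often near a cluster.

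Neighbouring members were also compared with each other in how they shifted with E2. Over 2167 neighbouring pairs inside clusters the Pearson correlation of the E2 difference was 0.216, and it was 0.233 for gaps under 2 kb, 0.227 for gaps of 2 to 5 kb and 0.181 for gaps of 5 to 12.5 kb. Neighbouring distal regions 12.5 to 50 kb apart had 0.200, those over 50 kb apart 0.132, and those in groups of 2 or 3 had 0.263. These are weak correlations across regions that share libraries, depth and base composition, and they carry no p. The correlation of the rank itself was 0.0445 inside clusters.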

How the data were processed

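Per the labels and the study's methods, the authors used Trimmomatic 0.39 for trimming, Bowtie2 for alignment (mm10), Picard 2.21.4 for duplicate removal and MACS2 2.2.71 for peaks. The deposited lists hold, per peak, the authors' fold over local background (a ratio), the −log10 p-value and −log10 q-value, and a score that was not used. Whether peaks were called per library was not stated. The study filtered out blacklisted peaks and removed batch effects from its counts, but whether the lists precede that filter was not stated, and the labels name no batch, so none was adjusted for here. Read totals were not part of the lists, so depth was not analysed here.

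From the lists, regions were merged, annotated with GENCODE vM21 basic (GRCm38) and ranked within each library. Repeat-masked means that soft-masked letters made up over 50% of the window of 100 bp on each side of the summit. Libraries were grouped by their labels and compared with exact permutation tests in python 3.11.15, numpy 2.4.6, pandas 2.3.3 and scipy 1.17.1, after a test on simulated data. Averages over all members are given without a p, because members were chosen with results known. A p is printed for single clusters and regions, adjusted over all groups or regions, and for differences between regions with and without a motif. It is also printed for the share of clusters led by an ERE region and for whether E2 acted differently with fulvestrant. Members, gene lists and tests were chosen with earlier results of these data known, and the ERE comparisons between clustered and unclustered regions and within clusters, the rank lead of members and the lists of equal length were added after the data had been seen.

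Named were the 10 clusters with most regions, the 5 largest rises and falls with E2 and the 3 with fulvestrant among clusters whose libraries did not overlap, and list genes with a cluster. Clusters carry the overlapping gene, or else the one with the nearest TSS ("near"). Some items that this rule names are not reported here. Alternatives covered the libraries, peak thresholds, recurrence, gaps, cluster size, merging, repeats, the rank measure, each library left out and a replicate block.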

Additional observations from a re-analysis of the deposited data

How the results depend on the processing

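Over 25 alternatives, 446 of 543 recomputed values kept their direction and their side of the threshold (or stayed within the limits set for values without a test). The lead of ERE members with E2 did so in all 25, and was 14.9 to 16.1 with 1 library left out. Causes of the changes below were not tested, except that rules applied again change the members. Differences are percentile points for ranks and percentage points for shares with a peak. With E2, the share of members with a peak, 12.6 as reported, differed by 16.7 at q of at most 0.05 and 22.7 at a −log10 q of at least 10. It differed by 13.6 with gaps up to 25 kb and 13.9 with clusters of at least 3 regions. Smaller differences were 5.80 with all 12 libraries, 5.97 with a peak in at least 8 libraries and 7.14 with lists of equal length. With 1 library left out the share differed by 10.1 to 16.0. The difference in mean rank with E2, 2.56 in the comparison above, was 2.07 with all 12 libraries, 0.243 with gaps up to 5 kb and 1.34 with clusters of at least 6 regions, and was 2.02 to 3.08 with 1 library left out.

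The difference with E2 in the count of clusters with at least 4 occupied regions, 112.8, was 70 with all 12 libraries, 115.9 within levels of the other agent, 27 with a peak in at least 8 libraries and 8.4 with clusters of at least 6, and was 95.05 to 139.75 with 1 library left out. The members' lead with E2 turned to 0.264 (share) and 0.520 (rank) at a −log10 q of at least 10. The rank lead was −2.47 within levels of the other agent and −1.90 with gaps up to 25 kb, and with 1 library left out it was −2.94 to −2.07, and the share lead −6.61 to −4.77.

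For fulvestrant, signs turned. The share with a peak was −1.30 within levels of E2, −4.10 at a −log10 q of at least 10 and −2.62 to 4.71 with 1 library left out. The share lead was 0.322 with all 12 libraries, 0.703 within levels of E2, 0.187 at a −log10 q of at least 10 and −1.46 to 0.984 with 1 left out. The cluster count was −15.6 within levels of E2, −32.2 at a −log10 q of at least 10, −5.2 with lists of equal length and −23.3 to 36.45 with 1 left out. The ERE lead was −0.983 within levels of E2, −0.996 with gaps up to 5 kb and 0.261 to 4.87 with 1 left out. With 1 left out the mean rank was −0.235 to 1.19 and the rank lead −1.17 to 0.0380.

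For pairs with all 12 libraries, shares differed by −1.13 (E2 minus vehicle), −12.7 (E2 minus E2 plus fulvestrant) and −1.16 (fulvestrant minus vehicle), and rank by −0.760 (E2 minus vehicle). Rank for E2 minus E2 plus fulvestrant was 0.117 with a peak in at least 8 libraries, 0.0342 with clusters of at least 6 and −1.32 to 0.945 with 1 left out. For fulvestrant minus vehicle it was 0.514 with gaps up to 5 kb and −0.831 to 0.619 with 1 left out. With 1 left out, E2 minus vehicle was 18.04 to 28.4 (share) and 1.27 to 3.53 (rank), and shares were 5.09 to 13.8 (E2 minus E2 plus fulvestrant) and 3.87 to 14.2 (fulvestrant minus vehicle).

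Deviations of same-numbered replicates had correlations of −0.0718 to 0.163 over 12 pairs (median 0.0832, 5 over 0.1), against a median of −0.0302 and 1 over 0.1 in 25 pairs with different numbers. Since not every pair was over 0.1, the numbers were not taken to pair the samples. With the replicate block the E2 difference in clusters with at least 4 occupied regions was 106.7, and the fulvestrant minus vehicle difference in rank was 0.0186, with the sign turned.

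Members higher with E2 were 0.639% with all 12 libraries, 4.00% with gaps up to 5 kb and 6.46% to 9.55% with 1 left out, and lower ones 0.150% with all 12, 0.0376% at a −log10 q of at least 10 and 1.16% to 1.95%. With fulvestrant the higher ones were 0.188%, 0.263% at a −log10 q of at least 10 and 1.16% to 1.80%, and the lower ones 0.113%, 0.376% and 0.714% to 1.16%, in the same order. The shares over all recurrent distal regions were not computed under these alternatives, so the members cannot be set against them. With 1 library left out, fewer libraries had to separate for a call. The rule gave 1172 members in 229 clusters with a peak in at least 8 libraries, 976 in 205 with gaps up to 5 kb, 4871 in 816 with gaps up to 25 kb, 4461 in 1094 with clusters of at least 3 and 1185 in 152 with clusters of at least 6. Peak lists give no read depth, and a region without a peak may lie just under the threshold.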
